A study of Homo sapiens with 6 samples.

Results

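The 10 genes described here make, sense and break down prostaglandins: PLA2G4A, PTGS1, PTGS2, PTGES, PTGES2, PTGES3, PTGIS, PTGER2, PTGER4 and HPGD. They were chosen by symbol, and all 10 have a row among the 61806 genes of the deposited table. They were measured by RNA sequencing in HFF cells, a banked culture of human foreskin fibroblasts, labelled wild type in every library. All cells were irradiated with ultraviolet B (UVB) at 40 mJ per cm2. The UVB group (3 libraries) was then kept in vehicle and the UVB + sauchinone group (3 libraries) in 10 µM sauchinone, a plant lignan, with 48 h of culture. The protocol also describes giving the compound 4 h before irradiation, and the labels do not say which version these libraries had. Unirradiated cells were not analysed here, so all values compare irradiated cells with and without the compound. Values listed by library follow replicates 1, 2 and 3 of a group.

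Prostaglandins are short-lived lipid signals made from arachidonic acid. A phospholipase A2 frees the fatty acid from membranes, a cyclooxygenase converts it to an unstable intermediate, and terminal synthases turn that into single prostaglandins such as prostaglandin E2 or prostacyclin. In skin, prostaglandin E2 is known as a mediator of the redness and pain of sunburn, and PTGS2 is known as a gene that UVB induces.

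With sauchinone, PTGS2, the inducible cyclooxygenase gene, was 2.29-fold higher, and PTGER2, the gene of the EP2 receptor for prostaglandin E2, was 2.01-fold higher. PTGIS, the gene of prostacyclin synthase, was 7.38-fold lower, and PLA2G4A, the gene of the cytosolic phospholipase A2, was 3.08-fold lower. PTGS1, PTGES, PTGES2, PTGES3 and PTGER4 did not pass the test, and HPGD had too few counts to be tested. So 4 of the 9 tested genes passed edgeR's quasi-likelihood test at a Benjamini-Hochberg adjusted p under 0.05, 2 in each direction. Over all 15704 genes tested 49.6% passed, 24.7% higher and 24.9% lower, and the count among the 9 is near that background. The median log2 fold change was 0.235 over the 9 genes and 0.0071 over all genes tested. PTGS2, PTGER2, PTGES2, PTGES and PTGER4 belong to the tested genes with a genomic span of 6.93 to 18.9 kb, whose median was 0.17. PTGES2, the gene at the median of the 9, had 0.026 with the trend of counts with span removed.

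Library totals ran from 20984851 to 23076388 counts, and 24223 to 25259 genes were detected per library. A count of 3, used here as the limit that a count of 0 allows, equalled 0.129 to 0.144 CPM (the count relative to the TMM-scaled library size), for counting error only. The labels name no separate cultures for the replicates, so p-values here cover the spread among these samples, perhaps only technical. They also give every library 1 batch label. Spearman correlations were 0.991 to 0.994 within groups and 0.964 to 0.975 between them. Of 10 fibroblast markers all were tested and 9 fell, with THY1 the exception, while 24.9% of all tested genes fell. The 10 markers summed to 19310 to 21110 CPM without sauchinone and 13610 to 13900 CPM with it. Fewer cells of a type and less RNA per cell cannot be told apart in such bulk samples.

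The 250 bases before the RefSeq start (GRCh38.p14) are printed for PTGS2 and PTGER2, which rose, and PLA2G4A, which fell, because the regulatory elements close to the PTGS2 start are well studied and the motif content of the others can be set beside them. RefSeq promoters were found for 9 of the 10 genes, all but PTGIS. Capitals mark matches on either strand to 7 motifs: a kappaB-type motif (GGG and CCC with any 4 bases between them), the cAMP response element half-site TGACG, the C/EBP-type TTNCGNAA, the TATA box TATAAA, the AP-1 motif TGANTCA, the antioxidant response element TGACNNNGC and the GC box GGGCGG. The stretches lie at chr1:186680424-186680673 (minus strand), chr14:52314062-52314311 (plus strand) and chr1:186828699-186828948 (plus strand), each read 5′ to 3′ along its gene.
PTGS2: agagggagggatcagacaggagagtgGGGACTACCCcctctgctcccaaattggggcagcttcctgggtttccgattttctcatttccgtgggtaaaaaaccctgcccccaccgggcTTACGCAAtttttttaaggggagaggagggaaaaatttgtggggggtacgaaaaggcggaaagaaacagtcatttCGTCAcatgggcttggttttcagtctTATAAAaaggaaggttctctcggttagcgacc
PTGER2: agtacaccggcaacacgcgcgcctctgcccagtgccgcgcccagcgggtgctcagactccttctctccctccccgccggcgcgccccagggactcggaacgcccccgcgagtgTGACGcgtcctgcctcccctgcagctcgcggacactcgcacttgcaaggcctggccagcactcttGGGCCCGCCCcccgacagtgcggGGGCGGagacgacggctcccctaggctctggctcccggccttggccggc
PLA2G4A: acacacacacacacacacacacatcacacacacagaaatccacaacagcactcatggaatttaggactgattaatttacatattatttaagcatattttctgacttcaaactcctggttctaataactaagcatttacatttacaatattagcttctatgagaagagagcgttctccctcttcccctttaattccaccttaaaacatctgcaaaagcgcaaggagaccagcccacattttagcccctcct

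In the PTGS2 stretch a kappaB-type match began 224 bases before the start, a C/EBP-type match at 133, a cAMP response element half-site at 58 and a TATA box at 32. Over 35116 promoter stretches of the same length, the kappaB-type motif was found in 16.1%, the C/EBP-type motif in 2.18%, the half-site in 21.2% and the TATA box in 10.7%. The PTGER2 stretch held a half-site at 137, a kappaB-type match at 72 and 2 GC boxes at 68 and 49, the first of which overlaps the kappaB-type match, and 42.6% of all stretches held a GC box. The PLA2G4A stretch held none of the 7 motifs. The kappaB-type motif was also in the corresponding stretches of PTGER4, PTGES2, PTGES3 and HPGD, and the half-site in those of PTGES3 and HPGD. Of these genes HPGD was not tested and the others did not pass. The AP-1 motif, in 6.57% of all stretches, and the antioxidant response element, in 10.9%, were in none of the 3 printed stretches. A match describes letters and not a bound site. The table's own coordinates for PTGS2 reach upstream of this start and include the printed stretch.

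PTGS2 mRNA is also known for AU-rich elements, copies of ATTTA in its 3′ untranslated region that RNA-binding proteins use to control its decay. Its GENCODE release 29 transcript (ENST00000367468.9) held 22 copies in 2562 bases, or 8.59 per kb, a density above that of 98% of the 17916 genes compared (median 1.55 per kb). PLA2G4A, which moved the other way, had 8.46 per kb, from 4 copies in 473 bases. PTGER4 had 6.63 copies per kb, PTGES3 5.28, PTGER2 4.34, HPGD 2.81, PTGS1 0.95, PTGES 0.78 and PTGIS 0.49, and PTGES2 had none. The first 30 bases after the stop codon of PTGS2 are shown, with 3 overlapping copies in capitals, as an example of such a cluster.
PTGS2 bases 1 to 30 after the stop codon: aagtctaatgatcatATTTATTTATTTAta

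**Figure D1:**
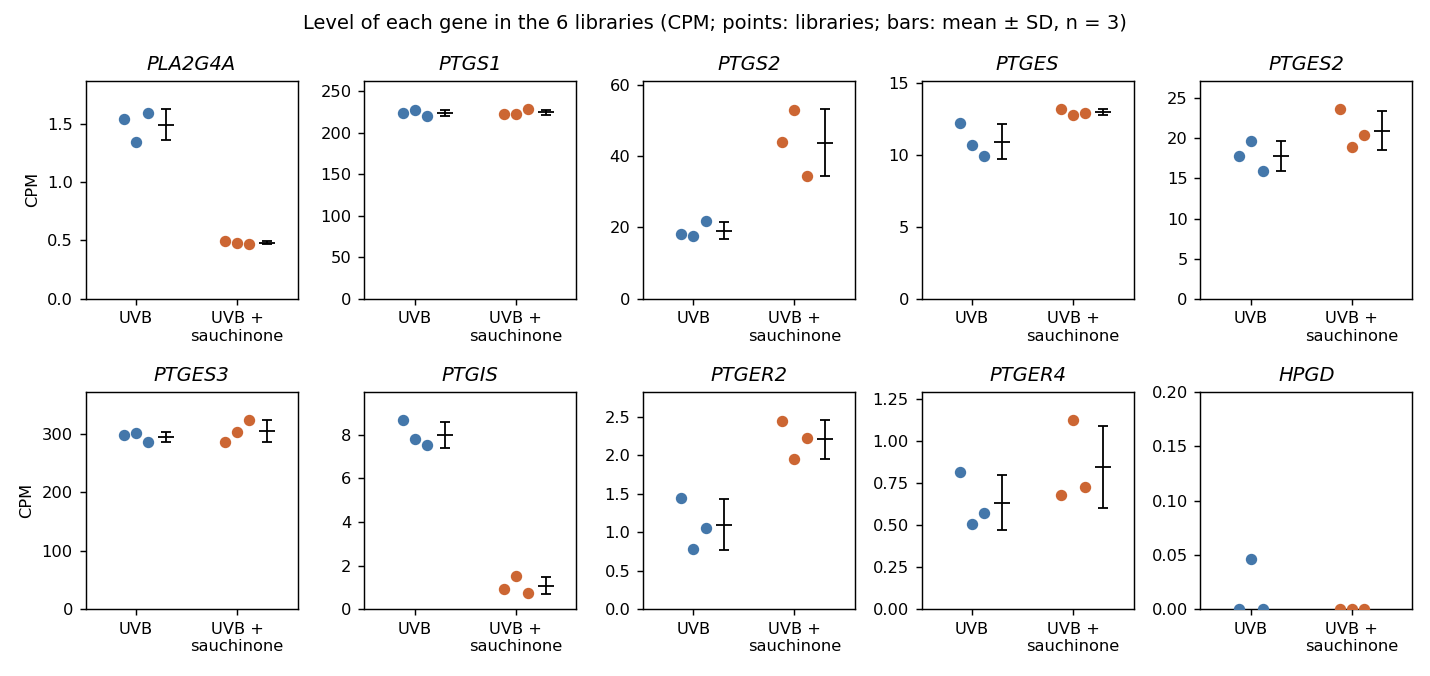
Level of each of the 10 genes in CPM, on a linear axis from 0 in each panel; points are single libraries and the mean ± SD of 3 libraries is drawn beside them, except for HPGD. The groups do not overlap for PLA2G4A, PTGS2, PTGES, PTGIS and PTGER2, and 57.1% of all tested genes have groups that do not overlap. HPGD has 1 count in 1 library.

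PLA2G4A (ENSG00000116711, chromosome 1 at 186828949 to 186988981, plus strand, GRCh38) encodes the enzyme that releases arachidonic acid for the cyclooxygenases. Counts were 32, 29 and 36 without sauchinone and 11, 11 and 11 with it. Every library with sauchinone lay below every library without it. The level fell from 1.49 ± 0.13 to 0.481 ± 0.014 CPM (mean ± SD, n = 3 per group), and the log2 fold change was −1.62 ± 0.36 (SE; edgeR adjusted p = 0.00072). The exact 95% counting interval of the fall, which leaves out the spread between libraries, was 2.07-fold to 4.75-fold. PLA2G4A spans 160 kb and belongs to the 3141 tested genes with the longest spans (88.7 to 2240 kb), of which 58.5% were called lower and whose median log2 fold change was −0.44. With the trend of counts with span removed, its value was −1.17 (edgeR adjusted p = 0.011). Of all tested genes 411 had a lower log2 fold change.

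PTGS1 (ENSG00000095303, chromosome 9 at 122370530 to 122395703, plus strand) encodes the cyclooxygenase that many tissues express constantly. Its level was 224, 228 and 220 CPM without sauchinone and 222, 223 and 228 CPM with it. The groups overlapped. The log2 fold change was 0.0055 ± 0.068 (edgeR adjusted p = 0.96), with a 95% interval of −0.13 to 0.14 that leaves out the change seen in PTGS2. Its sign, though never its call, depended on the setting, as given with the processing limits.

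PTGS2 (ENSG00000073756, chromosome 1 at 186671791 to 186680922, minus strand) encodes the cyclooxygenase that cytokines, growth factors and ultraviolet light induce. Counts were 375, 377 and 494 without sauchinone and 973, 1227 and 801 with it, or 18.1, 17.5 and 21.8 CPM against 44.0, 53.0 and 34.3 CPM. Every library with sauchinone was above every library without it, and the spread was wider with the compound. The level rose from 19.1 ± 2.35 to 43.8 ± 9.35 CPM, and its log2 fold change was 1.19 ± 0.13 (edgeR adjusted p = 8.8e-08). Of all tested genes 452 had a higher one. PTGS2 spans 9.13 kb, among the 3141 tested genes of 6.93 to 18.9 kb. Of these, 35.5% were called higher, against 24.7% of all tested genes, and their median log2 fold change was 0.17. The value of PTGS2 was 0.99 with the trend with span removed and 1.39 with that of GC content removed. PACERR, an RNA transcribed from the opposite strand beside PTGS2, had 31 and 13 summed counts without and with sauchinone and was not tested. In the table's coordinates PACERR starts at 186680601, before the upstream end of PTGS2, and its exonic size equals its span, so both have exonic bases in common there and reads from them could not be told apart if counting ignored strand. PLA2G4A starts 148027 bases from the upstream end of PTGS2, and these neighbours moved in opposite directions.

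Since both cyclooxygenases make the same intermediate, their levels were set side by side per length, in FPKM (the deposited counts scaled by exonic size and library total). PTGS1 stood at 38.0 FPKM without sauchinone and 39.4 FPKM with it, and PTGS2 at 3.42 and 8.09 FPKM. PTGS2 made up 7.85%, 7.48% and 9.46% of the FPKM of both genes without sauchinone and 17.3%, 20.1% and 13.7% with it. The shares did not overlap between the groups, and PTGS1 was the larger part in every library. The log2 ratio of PTGS2 to PTGS1 was higher with sauchinone by 1.18, and the exact permutation test (two-sided) gave p = 0.10, the smallest that 3 against 3 libraries allow. Adjusted over the 2 ratios tested, the exact p was 0.20.

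**Figure D2:**
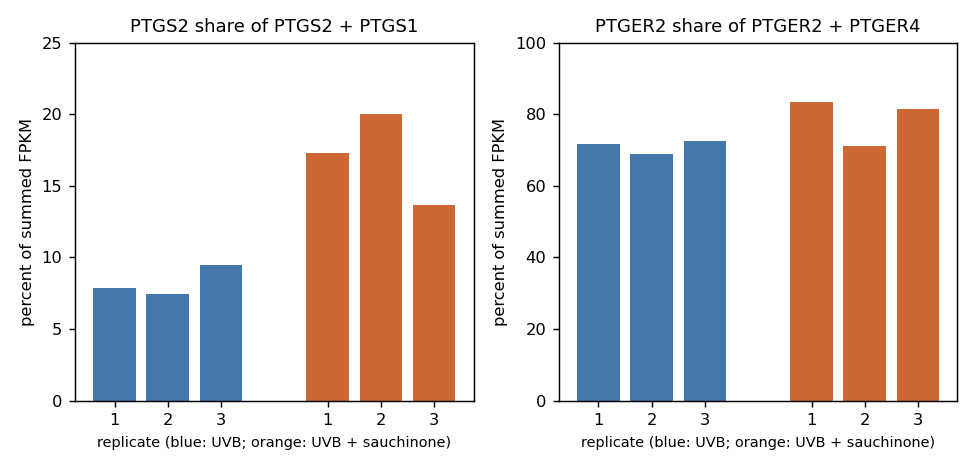
Share of PTGS2 in the summed FPKM of PTGS2 and PTGS1 (axis 0 to 25%) and of PTGER2 in that of PTGER2 and PTGER4 (axis 0 to 100%), for each library. The PTGS2 share is 7.48% to 9.46% in UVB and 13.7% to 20.1% in UVB + sauchinone, and the PTGER2 share overlaps between the groups.

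None of the 3 synthase genes for prostaglandin E2 passed the test. PTGES (ENSG00000148344, chromosome 9 at 129738331 to 129753042, minus strand), the inducible membrane-bound synthase known to work with the PTGS2 product, was at 12.2, 10.7 and 9.89 CPM without sauchinone and 13.2, 12.7 and 12.9 CPM with it. Its groups did not overlap, with every library with sauchinone above those without it. Of all tested genes 57.1% had groups that did not overlap, and 28.6% of all tested genes did so with sauchinone higher. The log2 fold change of PTGES was 0.25 ± 0.13 (edgeR adjusted p = 0.11). It was 0.084, 0.094 and 0.082 with the trends with span, exonic size and GC content removed. PTGES2 (ENSG00000148334, chromosome 9 at 128120693 to 128128462, minus strand), a membrane-associated synthase, was at 17.8, 19.7 and 16.0 CPM without sauchinone and 23.6, 18.9 and 20.4 CPM with it. Its groups overlapped, through replicate 2 of each. The log2 fold change of PTGES2 was 0.23 ± 0.12 (edgeR adjusted p = 0.10), and it passed when UVB replicate 2 was left out (0.31, edgeR adjusted p = 0.04).

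PTGES3 (ENSG00000110958, chromosome 12 at 56663341 to 56688408, minus strand) encodes p23, a cytosolic protein known both as a prostaglandin E synthase and as a co-chaperone of HSP90. It was at 298, 301 and 285 CPM without sauchinone and 285, 304 and 323 CPM with it, and the groups overlapped. The log2 fold change was 0.044 ± 0.071 (edgeR adjusted p = 0.63). It passed with the trend with GC content removed (0.21, edgeR adjusted p = 0.0076), an alternative chosen after seeing the data, and turned to −0.053 with the trend with span removed. The table has 5 pseudogene copies of PTGES3, with 31 to 61 counts per library in all, so some reads could be split. PTGES3 made up 88.6% to 91.5% of the FPKM of the 3 synthase genes in every library.

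PTGIS (ENSG00000124212, chromosome 20 at 49503874 to 49568137, minus strand) encodes the synthase that takes the same intermediate to prostacyclin, a vasodilator. Counts were 180, 168 and 171 without sauchinone and 21, 35 and 18 with it. The highest library with sauchinone was far below the lowest without it. The level fell from 8.0 ± 0.59 to 1.08 ± 0.387 CPM, and its log2 fold change was −2.88 ± 0.22 (edgeR adjusted p = 4.9e-10). Only 29 of the 15704 tested genes had a lower one. The exact 95% counting interval of the fall was 5.79-fold to 9.57-fold. PTGIS spans 64.3 kb, among the 3141 genes of 40 to 88.7 kb, whose median log2 fold change was −0.069. With the trend with span removed its value was −2.80 (edgeR adjusted p = 1.1e-09). Per length, PTGIS stood at 24.1%, 24.9% and 25.9% of the PTGES level without sauchinone and at 2.39%, 3.99% and 2.01% with it.

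PTGIS is known as a gene of endothelial and smooth muscle cells as well as of fibroblasts. The 8 endothelial markers summed to 6.81 to 8.09 CPM without sauchinone and 2.59 to 3.38 CPM with it, mostly TEK, the only one tested, which fell, while CDH5 and KDR were at 0 in all libraries. The 8 pericyte and smooth muscle markers summed to 272 to 287 CPM without sauchinone and 176 to 190 CPM with it. Of the 7 tested, RGS5, NOTCH3, CSPG4 and ABCC9 fell and none rose. MYH11 and DES, which define contractile smooth muscle, had means under 1 CPM in both groups. The part of these cells in the fall of PTGIS was not tested.

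PTGER2 (ENSG00000125384, chromosome 14 at 52314305 to 52328598, plus strand) encodes EP2, a receptor that raises cyclic AMP when prostaglandin E2 binds. Counts were 30, 17 and 24 without sauchinone and 54, 45 and 52 with it. The groups did not overlap. The level rose from 1.10 ± 0.33 to 2.20 ± 0.249 CPM, and its log2 fold change was 1.01 ± 0.30 (edgeR adjusted p = 0.0071). The exact 95% counting interval of the rise was 1.51-fold to 2.71-fold. Without UVB replicate 2, the lowest library, the value was 0.81 (edgeR adjusted p = 0.033). PTGER2 spans 14.3 kb and belongs to the same class of span as PTGS2. With the trend with span removed its value was 0.84 (edgeR adjusted p = 0.024).

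PTGER4 (ENSG00000171522, chromosome 5 at 40679915 to 40693735, plus strand) encodes EP4, which also raises cyclic AMP. Counts were 17, 11 and 13 without sauchinone and 15, 26 and 17 with it, and the groups overlapped. The log2 fold change was 0.41 ± 0.41 (edgeR adjusted p = 0.42), and its 95% interval of −0.38 to 1.21 includes the value of PTGER2. PTGER4 lies within TTC33, a gene of the opposite strand with 492 to 653 counts per library and a log2 fold change of 0.0053 ± 0.11. How far their exons overlap in the annotation used for counting was not tested. PTGER2 made up 71.6%, 68.9% and 72.4% of the FPKM of both receptors without sauchinone and 83.5%, 71.2% and 81.4% with it. The log2 ratio of PTGER2 to PTGER4 was higher with sauchinone by 0.63, which the exact permutation test (two-sided, p = 0.30, also when adjusted over the 2 ratios) did not separate from the spread between libraries.

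HPGD (ENSG00000164120, chromosome 4 at 174490175 to 174523154, minus strand) encodes the dehydrogenase that starts the breakdown of prostaglandins. It had 1 count in UVB replicate 2 and 0 in every other library, which allows up to 0.129 to 0.144 CPM in a library with 0. HPGD was not tested, and no fold change is given.

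**Figure D3:**
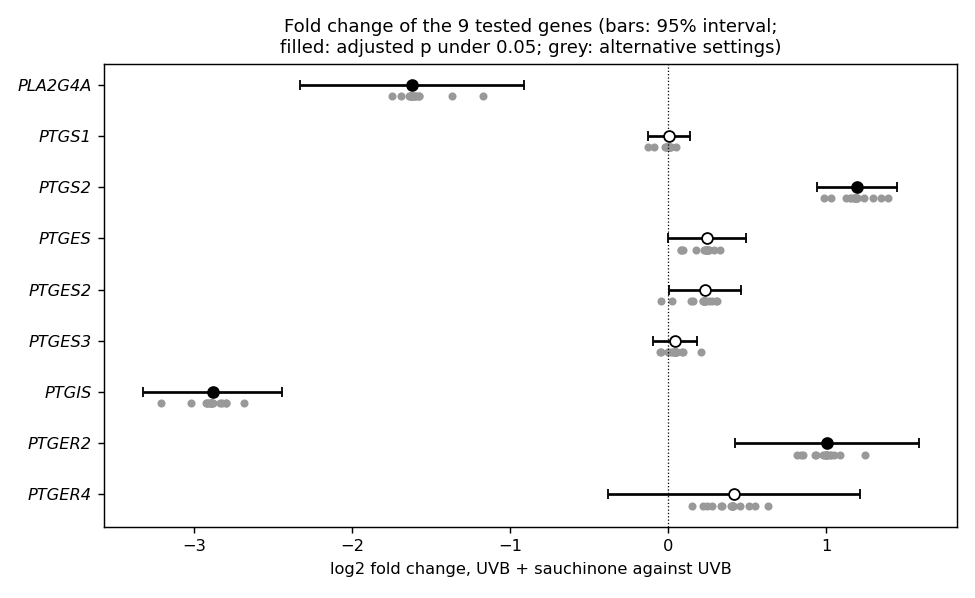
Log2 fold change of the 9 tested genes with its 95% interval, with the values under the alternative settings as grey points. PTGS2 and PTGER2 lie above 0 and PLA2G4A and PTGIS below 0 in every setting shown.

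Per length, the order without sauchinone was PTGES3 (85.3 FPKM), PTGS1 (38.0), PTGES (5.68), PTGS2 (3.42), PTGES2 (2.88), PTGIS (1.41), PLA2G4A (0.51), PTGER2 (0.437), PTGER4 (0.177) and HPGD. The libraries of PTGS2 and PTGES2 overlapped, as did those of PLA2G4A and PTGER2. With sauchinone PTGS2 (8.09 FPKM) stood beside PTGES (6.94) with overlapping libraries. PTGIS (0.193 FPKM) then overlapped with both PTGER4 (0.243) and PLA2G4A (0.173). These orders rest on the deposited exonic sizes, such as 1891 bases for PTGES and 6084 for PTGES2. Without scaling by size, PTGES2 (17.8 CPM) stood above PTGES (10.9 CPM) without sauchinone.

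**Figure D4:**
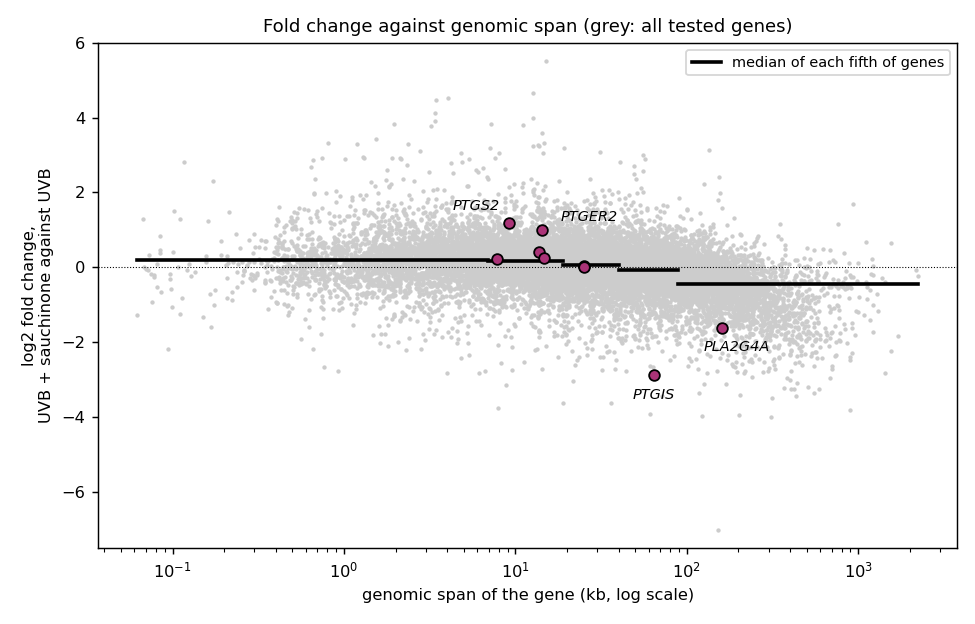
Log2 fold change of all tested genes against genomic span in kb on a log axis, with the median of 5 equal classes of span as black lines and the 9 tested prostaglandin genes as larger points, the 4 called ones named. The medians run from 0.20 for the shortest genes to −0.44 for the longest, and PTGIS, at −2.88, lies below the −0.069 of its class.

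The 5 genes whose levels followed PTGS2 most closely over the 6 libraries were TRIM65, ZNF202, HAUS3, GAS5 and VCPKMT, with Pearson correlations of log2 CPM of 0.9976 to 0.9995. The libraries share their 2 groups, and 1674 of the 13542 genes compared had a correlation over 0.9. Log2 fold changes of these 5 genes were 0.29 to 0.69, below that of PTGS2.

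Other genes around these steps were read from lists, and a value given alone after a gene is its log2 fold change, ± SE where shown. For each list, the counts that rose and fell stand beside 24.7% higher and 24.9% lower over all genes tested. Of 12 tested genes of phospholipases and arachidonate handling 3 rose and 6 fell, with a median log2 fold change of −0.25. PLA2G4C, a relative of PLA2G4A, fell from 6.35 ± 0.689 to 2.83 ± 0.368 CPM (−1.16 ± 0.19, edgeR adjusted p = 1.8e-05), and the secreted phospholipase gene PLA2G12A had −0.38 ± 0.094. PLA2G15, a lysosomal phospholipase gene, rose from 36.0 ± 2.81 to 55.4 ± 1.18 CPM (0.62 ± 0.089), and PNPLA8 had 0.46 ± 0.093, or 0.70 with the GC content trend removed. ANXA1, whose protein is known to restrain phospholipase A2, fell from 1186 ± 75.7 to 966 ± 61.2 CPM, a call lost with the trend with GC content removed (−0.061). MGLL, which releases arachidonate from an endocannabinoid, had −0.54 ± 0.088, and −0.35 with the exonic size trend removed. With the span trend removed MGLL turned to 0.38 and passed as higher with sauchinone (edgeR adjusted p = 0.0014). ACSL4 had −0.30, a call lost with the GC content (−0.12), exonic size (−0.14) or span (−0.053) trend removed. PLA2G6 had −0.89, lost without UVB replicate 1 (−0.86) or 2 (−0.71), without UVB + sauchinone replicate 1 (−0.85) or 2 (−0.85) and with the trend with span removed (−0.68). PLAA had 0.23, lost without UVB replicate 1 (0.23) and without UVB + sauchinone replicate 2 (0.23) or 3 (0.18), and 0.44 with the GC content trend removed. MBOAT7, PLAAT3 and LPCAT3 had 0.14, −0.21 and 0.027 and did not pass. The 9 others, PLA2G5 and PLA2G10 among them, had too few counts to be tested.

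Of the 4 tested genes of other prostanoid synthases 1 rose and 1 fell, with a median log2 fold change of 0.15. CBR1, which can reduce prostaglandin E2, had 0.32 ± 0.080 (edgeR adjusted p = 0.0022), a call lost with the GC content (0.15), exonic size (0.17) or span (0.094) trend removed. AKR1C3, which makes a prostaglandin F, had −0.25 ± 0.10 (edgeR adjusted p = 0.038) and has close paralogs that could share its reads. Its call was lost when UVB replicate 1 (−0.22) or 3 (−0.24) or UVB + sauchinone replicate 1 (−0.23), 2 (−0.27) or 3 (−0.26) was left out, with library size scaling alone or with no filter on low counts. It was also lost with the span (−0.14) or GC content (−0.10) trend removed. PRXL2B and AKR1B1 had 0.22 and 0.085 and did not pass. The prostaglandin D synthase genes PTGDS and HPGDS were low, with 3 and 4 summed counts without and with sauchinone for PTGDS and 0 in all libraries for HPGDS, and the thromboxane synthase gene TBXAS1 had 25 and 22.

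Of the 5 tested genes of other prostanoid receptors none rose and 2 fell, with a median log2 fold change of −0.080. PTGFR, the prostaglandin F receptor gene, went from 107 ± 18.4 to 69.5 ± 6.30 CPM (−0.62 ± 0.10, edgeR adjusted p = 2.9e-05), and with the trend with span removed it stood at 0.079 (edgeR adjusted p = 0.49), with that of GC content removed at −0.34. PTGFRN, whose product binds that receptor, had −0.35 ± 0.10, a call lost without UVB + sauchinone replicate 1 (−0.25) and with the trend with span removed (−0.21), and −0.21 with that of GC content removed. PTGER3, PTGIR and TBXA2R had 0.16 ± 0.21, −0.080 ± 0.15 and 0.53 ± 0.27 and did not pass. PTGER1, PTGDR and PTGDR2 had 1 to 6 summed counts per group.

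Of the 9 genes listed under prostaglandin transport and breakdown 3 rose and 5 fell, with a median log2 fold change of −0.34. ABCC4, which exports prostaglandin E2, fell from 60.3 ± 8.59 to 27.3 ± 1.71 CPM (−1.14 ± 0.10, edgeR adjusted p = 5.1e-09), and had −0.34 with the trend with span removed. The uptake transporter gene SLCO3A1 had −1.56 ± 0.21, and −0.70 with that trend removed. The prostaglandin transporter gene SLCO2A1 had 31 and 61 summed counts per group (0.90 ± 0.43) and did not pass. The reductase genes PTGR2 and ZADH2 (also named PTGR3), whose products act after HPGD, had −0.74 ± 0.17 and −0.34 ± 0.083, and ZADH2 had −0.51 with the span trend removed. CBR4, whose part in prostaglandin breakdown was not tested, had −0.41 ± 0.12. Its call was lost with the trend with span removed (−0.011), and it had −0.24 with that of GC content removed. PTGR1 had 0.20 ± 0.077, lost without UVB replicate 1 (0.20) or 2 (0.19), without UVB + sauchinone replicate 1 (0.19) or 2 (0.18) and with the trend with exonic size removed (0.13). AKR1C1 and AKR1C2, reductase genes of near-identical sequence whose reads could be split, had 1.67 ± 0.081 and 0.45 ± 0.14.

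**Figure D5:**
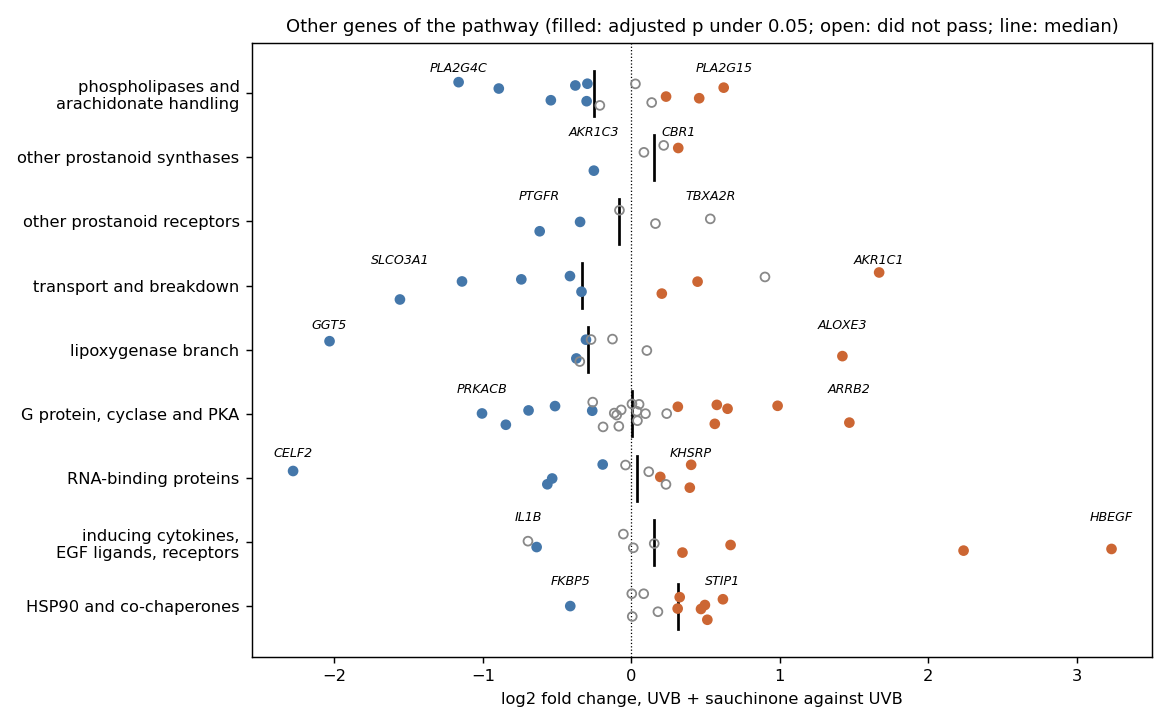
Log2 fold change of every tested gene in the 9 lists around the pathway, 1 line per list, with genes that passed filled (blue lower, orange higher), the others open, the median as a black line, and the lowest and the highest gene of each list named. HBEGF, at 3.23, is the highest and CELF2, at −2.28, the lowest.

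Of 23 tested genes below EP2 and EP4, for the G protein, adenylyl cyclases, protein kinase A and their regulators, 6 rose and 5 fell, with a median log2 fold change of 0.0039, and 8 to 17 passed over the alternatives. CREM, a cyclic AMP responsive transcription factor gene, rose from 21.9 ± 1.21 to 43.3 ± 6.17 CPM (0.98 ± 0.11, edgeR adjusted p = 8.7e-08), and ARRB2, an arrestin gene, from 3.55 ± 0.219 to 9.83 ± 0.536 CPM (1.47 ± 0.16). PRKACB, a catalytic subunit gene of protein kinase A, fell from 97.6 ± 12.5 to 48.6 ± 3.84 CPM (−1.01 ± 0.10), and had −0.55 with the trend with span removed. ADCY4, an adenylyl cyclase gene, had −0.85 ± 0.12.

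Of 9 tested genes of cytokines, EGF family ligands and receptors known to induce PTGS2 4 rose and 1, TGFA, fell (lost with the trend with span removed, −0.40), with a median log2 fold change of 0.15. HBEGF, a ligand of the EGF receptor, rose from 15.1 ± 1.40 to 142 ± 36.3 CPM (3.23 ± 0.14, edgeR adjusted p = 6.8e-14). AREG and EREG, ligands of the same family, had 2.24 ± 0.24 and 0.67 ± 0.076. TNFRSF1A, a TNF receptor gene, had 0.34 ± 0.087, a call lost with the trend with span removed (0.17), and 0.21 with that of GC content removed. IL1B, the cytokine gene of the list that was tested, had 94 summed counts without and 61 with sauchinone (−0.70 ± 0.38) and did not pass. EGFR, IL1R1 and IL1RAP had 0.15, −0.054 and 0.013 and did not pass either. IL1A and TNF, with 31 and 17 and with 3 and 18 summed counts per group, were not tested. These 6 genes are named after their values were seen. Leukocytes are a further cell type known to express PTGS2. The 9 leukocyte markers summed to 3.4 to 4.21 CPM without sauchinone and 4.34 to 5.23 CPM with it. CD3E, TPSAB1 and HPGDS were among those at 0. The 4 tested ones, CD68, CD14, LYZ and CSF1R, had higher summed counts with sauchinone, and none passed. PTPRC went the other way, with 38 summed counts without and 8 with sauchinone, and was not tested. The part of leukocytes in the rise of PTGS2 was not tested.

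Of 10 genes of RNA-binding proteins known to act on PTGS2 mRNA 3 rose and 4 fell, with a median log2 fold change of 0.039, and 5 to 7 passed over the alternatives. CELF2, known as a repressor of PTGS2 translation, fell from 26.6 ± 2.19 to 5.47 ± 0.59 CPM (−2.28 ± 0.13, edgeR adjusted p = 2.6e-12), and had −1.14 with the trend with span removed. ZFP36L2, a decay factor for AU-rich RNAs, and TIA1, a translational repressor, had −0.57 ± 0.075 and −0.53 ± 0.092, and TIA1 had −0.31 with the GC content trend removed. KHSRP, a further decay factor, had 0.40 ± 0.078, but 0.22 with the span trend and 0.16 with the GC content trend removed.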

How the data were processed

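Processing, as far as the sources go: the authors deposited counts per gene and library beside FPKM values, exonic sizes and coordinates. The build is GRCh38, taken from the submitters' notes; aligner, counter and use of strand in counting are items not given in the sources used here, so overlapping genes are uncertain. Deposited FPKM equalled the counts scaled by exonic size and library total, within 0.006, in 100% of values.

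R 4.3.3 and edgeR 4.0.16 tested the counts: filterByExpr kept 15704 genes, followed by TMM scaling, the two-sided quasi-likelihood test without covariates and Benjamini-Hochberg adjustment over all of them at 0.05. The SE is the fold change over the root of its F statistic. Counting intervals are exact binomial ones at 95% on the counts summed per group, so they leave out the spread between libraries. The script was tested on simulated data. Alternatives were DESeq2 1.42.0, limma-voom (limma 3.58.1), other scalings and filters, leaving out each library, a block for the replicate number, and removal of the trends with span, exonic size or GC content, the last chosen after seeing the data. All 10 members are named, tested genes of the prostanoid lists by value, and from other lists the 4 with the smallest p; other names were added after their values were seen. Members and lists were chosen with earlier results of these data known. The ratio of PTGS2 to HPGD was planned and not computed, since HPGD had 1 count.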

Additional observations from a re-analysis of the deposited data

How the results depend on the processing

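The 4 calls among the 10 genes held in each of 17 alternatives, with log2 fold changes of 0.99 to 1.39 for PTGS2, 0.81 to 1.24 for PTGER2, −3.21 to −2.69 for PTGIS and −1.75 to −1.17 for PLA2G4A. The number of genes called ran from 6718 to 8185 (7786 as reported) and that of the pathway lists from 47 to 59 (55 as reported). Of those 55 genes 32 kept their call in all alternatives. Over the alternatives the synthase list had 0 to 3 calls (2 as reported) and the receptor list 1 to 3 (2 as reported), and the G protein list had 17 (11 as reported) with the GC trend removed. With the replicate block 7280 genes were called and the 4 calls held, with 1.18 for PTGS2, while AKR1C3, PTGR1, ADCY9, HNRNPD and TIAL1 lost theirs. The labels tie no number to a shared culture, and same-numbered libraries had correlations of deviations of 0.0072, −0.078 and −0.031, so the numbers were not taken as pairs. The log2 ratio of PTGS2 to PTGS1 was 1.02 to 1.35 and that of PTGER2 to PTGER4 0.43 to 0.94. PTGS1 turned to −0.0054 with upper-quartile scaling, −0.00034 with no filter, −0.091, −0.021 and −0.13 with the trends with span, exonic size and GC content removed, and ran from −0.010 to 0.015 with 1 library left out (−0.0041 without UVB + sauchinone replicate 3). PTGES3 turned to −0.053 (span) and −0.044 (exonic size) and PTGES2 to −0.044 (GC content). With the span trend removed MGLL turned to 0.38 and passed in that direction (edgeR adjusted p = 0.0014). PTGFR turned to 0.079, ADCY9 to 0.19 and FKBP5 to 0.016 with that trend removed, and none of these passed. The cause was not tested. PTGER4, PTGER2 and PLA2G4A had 99, 222 and 130 counts in all, which limits the changes that could be detected.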

Other observations

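Of 18 genes of the lipoxygenase branch, which includes the route from arachidonic acid to leukotrienes, 8 were tested. Of these 1 rose and 3 fell, with a median log2 fold change of −0.29. ALOX5 and ALOX15, 2 of its entry enzyme genes, were at 0 in all libraries. LTA4H, whose product makes leukotriene B4, went from 118 ± 4.25 to 95.4 ± 0.197 CPM (−0.31 ± 0.075, edgeR adjusted p = 0.0018), a call lost with the GC trend removed (−0.092). GGT5, which acts on leukotriene C4, had 102 and 26 summed counts per group (−2.03 ± 0.42, edgeR adjusted p = 0.00036), and the epidermal lipoxygenase gene ALOXE3 41 and 116 (1.42 ± 0.36, edgeR adjusted p = 0.0021). MGST2 had −0.37 ± 0.13, lost without UVB replicate 1 (−0.37), without UVB + sauchinone replicate 2 (−0.24) and with the span trend removed (−0.25).

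Of 11 genes of HSP90 and its co-chaperones, known partners of the PTGES3 product, 6 rose and 1 fell (FKBP5), with a median log2 fold change of 0.31, beside 0.044 for PTGES3. The call of FKBP5 was lost with the exonic size (−0.23), GC content (−0.24) or span (0.016) trend removed, and that of AHSA1, which rose, with that of span removed (0.13). HSP90AB1 rose from 1519 ± 81.0 to 2166 ± 126 CPM (0.51 ± 0.066, edgeR adjusted p = 1.1e-06), and STIP1, CDC37 and FKBP4 had 0.62 ± 0.080, 0.47 ± 0.075 and 0.50 ± 0.091. With the span trend removed HSP90AB1 had 0.30 and FKBP4 0.31, and with that of GC content removed CDC37 had 0.24.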
